A study of Mus musculus with 10 samples.

Results

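The genes that fold proteins in the endoplasmic reticulum (ER), report on misfolded protein there and send it back to the cytosol for destruction were read in livers of *db/db* mice. The 33 members of this group were the rows of the deposited table whose gene symbol is one of a set of ER chaperones, unfolded protein response (UPR) genes and genes of ER-associated degradation (ERAD), out of 15126 genes listed. All 33 were found, and 32 of them were among the 11027 genes that passed the filter of a mean level of 1 or more CPM, which are a gene's reads scaled to a common library total. The exception was *Derl3*. The livers came from male *db/db* mice, which lack a working leptin receptor and are obese and diabetic, at 10 weeks of age. The 5 AAV8-Control mice had received an adeno-associated virus of serotype 8 carrying eGFP, and the 5 treated mice the same serotype carrying another transgene, by tail vein, and RNA was taken 5 weeks later. Both groups thus share the leptin receptor mutation and the viral vector, and no uninjected or lean liver was measured. The promoter that drives the vector is not given in the sources used here.

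Secreted and membrane proteins enter the ER through the Sec61 channel and are folded by the Hsp70 protein BiP, the Hsp90 protein GRP94, lectin chaperones that hold N-glycans, J-domain co-chaperones and disulfide isomerases. When unfolded protein accumulates, 3 sensors in the ER membrane answer. IRE1 splices the *Xbp1* mRNA, ATF6 is cut to release a transcription factor, and PERK slows translation. ERAD marks proteins that fail to fold, moves them through the membrane and hands them to the proteasome. The liver, which makes most plasma proteins, expresses this machinery at a high level, and its activation is well known in obese and diabetic rodents.

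Between 19499795 and 35498596 reads per library were counted on genes. The labels conflict, since they give the tissue as liver and the vector as AAV8 but also name cultured primary hepatocytes and an adenovirus. The samples were taken as livers, as the study's methods describe them. The 10 hepatocyte markers summed to 100946 to 137367 CPM in every library, and the 8 Kupffer cell and macrophage markers listed to 134 to 269.6 CPM, so RNA of other liver cells was present. Plasma cells and pancreatic acinar cells, both rich in ER, left little trace. The 8 plasma and B cell markers in the table summed to 0.867 to 3.47 CPM per library and the 2 acinar markers to 2.97 to 4.90 CPM, and 6 of the 8 acinar markers, among them *Prss1* and *Cpa1*, were not in the table. In whole liver, a lower level can mean fewer cells of a type or less RNA per cell, and these cannot be told apart.

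The stretch of promoter that links many of these genes is the ER stress response element (ERSE), which ATF6 and spliced XBP1 bind together with the general factor NF-Y. It was searched for on both strands as CCAAT and CCACG separated by 9 bases, in RefSeq windows of GRCm38.p6 from 250 bases before to 50 bases after each gene's start. A window was found for 27 of the 33 members, and none for *Atf6*, *Derl1*, *Hspa13*, *Hyou1*, *Manf* or *Sec61a1*. ERSE was present in 9 of the 27 members (33.3%), against 37 of all 27025 genes with a window (0.137%). The members were picked as ER and UPR genes, which this element is known to link. These shares thus describe the set and are no test. Of the 14 genes that were tested for expression and hold ERSE, 8 are members, and the ninth member, *Derl3*, was not tested. The windows below show each element with 15 bases on either side, 5′ to 3′ on the strand of the gene. Capitals mark CCAAT and CCACG, or CGTGG and ATTGG where the element lies on the other strand. All 9 members that hold ERSE are shown. Of these, *Hsp90b1*, *Creld2* and *Pdia6* had a positive slope on *Hspa5* at an unadjusted p under 0.05. None of them kept it after adjustment, as described with the slopes. *Calr*, *Canx*, *Dnajc3* and *Syvn1* had no slope at that threshold, and *Hspa5* is the gene the slopes were fitted on.
*Hspa5*, chr2:34772010-34772058, forward: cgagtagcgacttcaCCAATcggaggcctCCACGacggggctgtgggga
*Hsp90b1*, chr10:86705623-86705671, reverse: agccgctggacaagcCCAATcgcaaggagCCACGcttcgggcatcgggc
*Hsp90b1*, chr10:86705518-86705566, reverse: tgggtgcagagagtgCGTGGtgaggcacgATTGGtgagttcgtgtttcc
*Creld2*, chr15:88819505-88819553, forward: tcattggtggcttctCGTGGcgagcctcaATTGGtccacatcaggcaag
*Pdia6*, chr12:17266476-17266524, forward: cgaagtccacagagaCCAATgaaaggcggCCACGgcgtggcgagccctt
*Calr*, chr8:84847060-84847108, reverse: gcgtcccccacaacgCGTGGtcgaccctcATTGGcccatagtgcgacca
*Canx*, chr11:50325785-50325833, reverse: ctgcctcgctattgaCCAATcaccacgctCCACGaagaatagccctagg
*Dnajc3*, chr14:118937812-118937860, forward: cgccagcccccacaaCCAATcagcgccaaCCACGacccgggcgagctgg
*Syvn1*, chr19:6046517-6046565, forward: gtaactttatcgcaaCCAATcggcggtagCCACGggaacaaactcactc
*Derl3*, chr10:75893227-75893275, forward: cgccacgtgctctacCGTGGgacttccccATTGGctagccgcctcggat

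The elements began between 212 and 44 bases before the start of their gene, and *Hsp90b1* held a pair of them in opposite orientation. In *Hspa5* the element spans bases -65 to -47 from the start. A related element, ERSE-II (ATTGG and CCACG separated by 1 base), was found in 2 of the 27 members (7.41%), *Herpud1* and *Dnajb11*, against 12 of the 27025 genes (0.0444%). That of *Herpud1* is shown in the same way, since it is the ERAD member with the highest level per length.
*Herpud1*, chr8:94386362-94386402, forward: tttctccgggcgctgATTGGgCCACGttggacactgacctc
Of the XBP1-type UPR elements, TGACGTGG was found in none of the 27 members and in 193 of all genes with a window (0.714%), and TGACGTGA in *Hspa5* and in 137 of all genes (0.507%). TGACGTGG read on its other strand contains CCACG, so this search overlaps with part of ERSE. A match describes the letters in the window and is not evidence that a factor was bound in these livers.

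No ER gene met the threshold between treated and AAV8-Control livers. The means of the treated livers differed from those of AAV8-Control by as little as -0.130% in *Xbp1* and by as much as -19.6% in *Manf*. With limma and Benjamini-Hochberg adjustment over the 11027 genes, 0 of the 32 tested members had an adjusted p under 0.05, against 2 genes of the whole table (0.0181%). The lowest adjusted p among members was 0.617. At an unadjusted p under 0.05, *Manf*, *Derl2* and *Pdia6* were lower in the treated livers, which is 3 of 32 members (9.38%) where 2.97% of all tested genes were lower by the same rule. Only *Os9* was higher, which is 1 of 32 (3.13%) where 4.99% of all genes were higher. edgeR and DESeq2 on the recovered reads gave the same 4 names at an unadjusted p under 0.05 and also no adjusted p under 0.05. The groups were free of overlap in 0 of the 32 members, and in 0.907% of all tested genes.

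The intervals bound how far a change could have gone unseen. The median log2 fold change of the 32 members was -0.04, against 0.02 over all tested genes, and 22 of the 32 were below 0, as were 44.1% of all tested genes. The 95% interval of each of the 32 members lay within a 1.5-fold change in either direction, and for 26 of them within 1.3-fold. The widest bound on this scale, 0.52 or 1.43-fold, was that of *Manf*. Members varied somewhat less between livers than other genes, with a median residual SD of 0.128 on the log2 scale against 0.157 over all tested genes. The labels number the livers within each group without saying more about them, so p-values measure the spread between these samples.

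**Figure D1:**
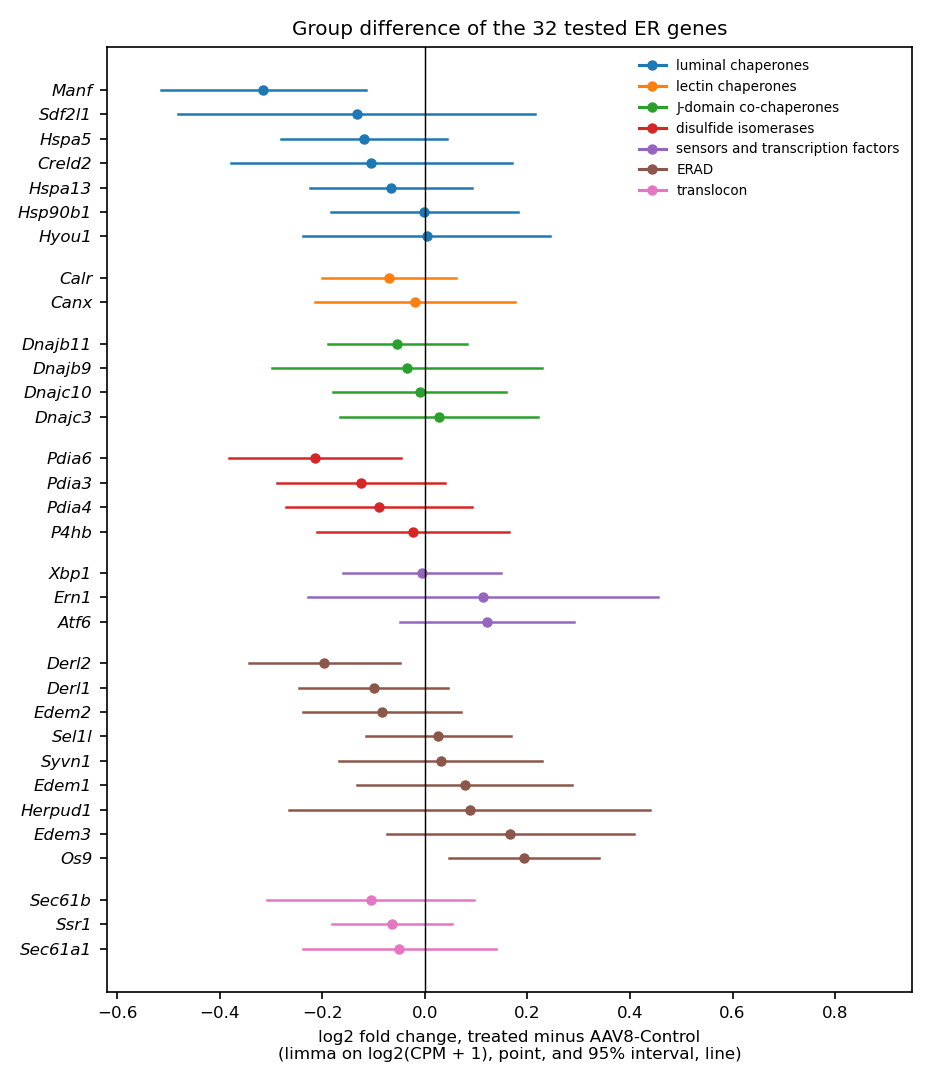
Log2 fold change of treated livers against AAV8-Control (x axis, limma on log2(CPM + 1)) for the 32 tested members, grouped and coloured by role. Points are estimates and lines 95% intervals, of which 28 cover 0, and the 4 that do not are *Manf*, *Pdia6*, *Derl2* and *Os9*.

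Among the 7 luminal chaperones and their partners, *Manf* had an unadjusted p under 0.05 and the other 6 had intervals that cover 0. *Hspa5* encodes BiP, the ER Hsp70 that binds nascent chains and holds the stress sensors inactive, and its mRNA is the customary reading of the UPR. It measured 429.9, 453, 485, 518 and 524 CPM in AAV8-Control replicates 1 to 5, and 440.0, 474, 400.3, 459 and 444 CPM in treated replicates 1 to 5. The groups overlapped, although 0 of the 5 treated livers lay above the AAV8-Control median, and treated replicate 3 was below every control. Means were 482 ± 40.5 and 443 ± 27.5 CPM (SD, n = 5 livers per group). The log2 fold change was -0.12 (95% interval -0.28 to 0.04, limma adjusted p = 0.637, two-sided exact permutation p = 0.135), which does not exceed the spread between livers. *Hsp90b1*, encoding GRP94, measured 395 ± 41.0 and 394 ± 31.1 CPM (log2 fold change 0.00, 95% interval -0.18 to 0.18). *Hyou1*, encoding the large Hsp70-like protein that exchanges nucleotide on BiP, was at 94.6 ± 9.03 and 95.6 ± 15.9 CPM.

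*Manf* had the smallest p of all members. It encodes a small ER protein that binds BiP and is secreted on ER stress. Its level was 50.5, 49.3, 57.3, 55.4 and 60.2 CPM in AAV8-Control replicates 1 to 5, and 46.9, 51.9, 37.6, 43.7 and 39.1 CPM in treated replicates 1 to 5. Of the treated livers, 4 of the 5 lay below the lowest control and replicate 2 fell inside the control range. The log2 fold change was -0.31 (standard error 0.0925, 95% interval -0.52 to -0.11), with an unadjusted limma p of 0.00490 and an adjusted p of 0.617. The two-sided exact permutation p was 0.0238, where the smallest that 5 against 5 livers allow is 0.00794. Leaving out each liver in turn gave log2 fold changes from -0.38 to -0.26. Exons of *Manf* share 4.71% of their bases with an antisense gene and 4.14% with *Dcaf1*, and whether the counting used strand is not given in the sources used here.

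The remaining luminal members had intervals that cover 0. *Creld2*, an ER protein strongly induced by ER stress, averaged 13.7 ± 2.85 CPM in the controls and 12.5 ± 1.43 CPM in the treated livers. *Sdf2l1*, a partner of the co-chaperone encoded by *Dnajb11*, was at 5.26 ± 1.44 and 4.68 ± 1.05 CPM. *Hspa13*, a truncated Hsp70 of the ER, was at 34.5 ± 2.67 and 32.8 ± 2.29 CPM. The 7 log2 fold changes of the class ran from -0.31 to 0.00, with a median of -0.10.

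The intervals of both lectin chaperones cover 0. *Calr*, encoding calreticulin, and *Canx*, encoding calnexin, hold glycoproteins by their monoglucosylated N-glycan while they fold. *Calr* averaged 590.2 ± 22.3 CPM in the controls and 563 ± 25.5 CPM in the treated livers (log2 fold change -0.07, 95% interval -0.20 to 0.06), with 3 of the 5 treated livers below the lowest control. *Canx* was at 274 ± 18.7 and 272 ± 36.0 CPM (log2 fold change -0.02, 95% interval -0.21 to 0.18). Of the J-domain co-chaperones that deliver clients to BiP, 0 of 4 had an unadjusted p under 0.05. *Dnajb9* was at 47.8 ± 9.46 and 46.1 ± 5.25 CPM, *Dnajb11* at 48.4 ± 2.50 and 46.6 ± 2.67, *Dnajc3* at 182 ± 14.0 and 186 ± 23.0, and *Dnajc10* at 20.7 ± 1.69 and 20.6 ± 1.66. Their log2 fold changes ran from -0.05 to 0.03.

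All 4 disulfide isomerases had a log2 fold change below 0, and *Pdia6* was the one with an unadjusted p under 0.05. These thiol enzymes form and reshuffle disulfide bonds. *Pdia6* measured 128, 151, 149, 162 and 174 CPM in AAV8-Control replicates 1 to 5, and 129, 139, 131, 129.6 and 126 CPM in treated replicates 1 to 5. The treated livers lay close together at the low end of the control range, and AAV8-Control replicate 1 lay among them. Means were 153 ± 16.9 and 131 ± 4.88 CPM, so that the log2 fold change was -0.21 (standard error 0.0771, unadjusted limma p = 0.0162, adjusted p = 0.617, exact permutation p = 0.0397). Without AAV8-Control replicate 1 the groups did not overlap, where 2.91% of all tested genes did not, and the leave-out range of the log2 fold change was -0.27 to -0.17.

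*Pdia3* encodes ERp57, which works on the clients of calnexin and calreticulin. It measured 261, 259, 265, 312 and 326 CPM in AAV8-Control replicates 1 to 5, and 258, 268, 251.98, 264 and 257 CPM in treated replicates 1 to 5. AAV8-Control replicates 4 and 5 stood above all other livers, and the other 3 controls lay inside the treated range. The log2 fold change was -0.12 (95% interval -0.29 to 0.04, limma adjusted p = 0.633, exact permutation p = 0.135), and without AAV8-Control replicate 5 it was -0.07. *Pdia4* averaged 174 ± 8.43 and 164 ± 21.2 CPM. *P4hb*, encoding the classical protein disulfide isomerase that is also a subunit of the triglyceride transfer protein, was at 1679 ± 124 and 1656 ± 168 CPM. Per kilobase of exon (GENCODE M21), *P4hb* had the highest level of the 33 members at 587 CPM in AAV8-Control, followed by *Calr* at 205, *Herpud1* at 133 and *Hspa5* at 114.

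The 3 genes of the sensor and transcription factor class had intervals that cover 0 in the whole set of livers. *Xbp1*, the transcription factor whose mRNA IRE1 splices, measured 118, 106, 119, 119 and 111 CPM in AAV8-Control replicates 1 to 5, and 131, 113, 111, 114 and 102 CPM in treated replicates 1 to 5. Its log2 fold change was 0.00 (-0.0049, 95% interval -0.16 to 0.15, limma adjusted p = 0.987, exact permutation p = 0.976). Both the highest and the lowest of the 10 values were treated livers. Gene-level reads count the spliced and the unspliced form together, so these values say nothing of IRE1 activity. Likewise the cut form of ATF6 is not visible in its mRNA.

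*Atf6*, the membrane-bound factor, measured 72.5, 70.7, 74.1, 76.1 and 75.2 CPM in AAV8-Control replicates 1 to 5, and 67.8, 75.8, 80.8, 88.8 and 90.3 CPM in treated replicates 1 to 5. The treated values spread on both sides of the narrow control range, with replicates 3, 4 and 5 above every control and replicate 1 below. The log2 fold change was 0.12 (95% interval -0.05 to 0.29, limma adjusted p = 0.645, exact permutation p = 0.167). *Ern1*, encoding IRE1, measured 53.0, 48.6, 46.3, 54.8 and 66.7 CPM in AAV8-Control replicates 1 to 5, and 36.3, 64.0, 62.5, 67.0 and 66.8 CPM in treated replicates 1 to 5. Treated replicate 1 was the lowest of all 10 livers, and the other 4 treated livers were above 4 of the 5 controls. The log2 fold change was 0.11 (95% interval -0.23 to 0.45, limma adjusted p = 0.820, exact permutation p = 0.595). Without treated replicate 1, it was 0.28 for *Ern1* (unadjusted p = 0.0136) and 0.18 for *Atf6* (unadjusted p = 0.0194), both with a limma adjusted p of 0.323. It was 0.06 for *Ern1* without treated replicate 4 and 0.08 for *Atf6* without treated replicate 5.

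The count of higher members also rested on that liver. Without treated replicate 1, 4 members in place of 1 were higher at an unadjusted p under 0.05, namely *Ern1*, *Atf6*, *Edem3* and *Os9*, while the share of all genes that were higher went to 10.7%. With TMM scaling, which corrects for a shift of the bulk of genes, and without the same liver, *Ern1* and *Os9* were higher, where 6.92% of all genes were. Treated replicate 1 was the lowest of its group in 15 of the 32 tested members and the highest in 1, and treated replicate 4 was the highest in 12 and the lowest in 0. Among controls, replicate 2 was the lowest in 13 members, and replicates 4 and 5 were the highest in 10 and 11. The TMM factor of treated replicate 1 was 0.948, the lowest of the 10. Its part in these counts was not tested.

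**Figure D2:**
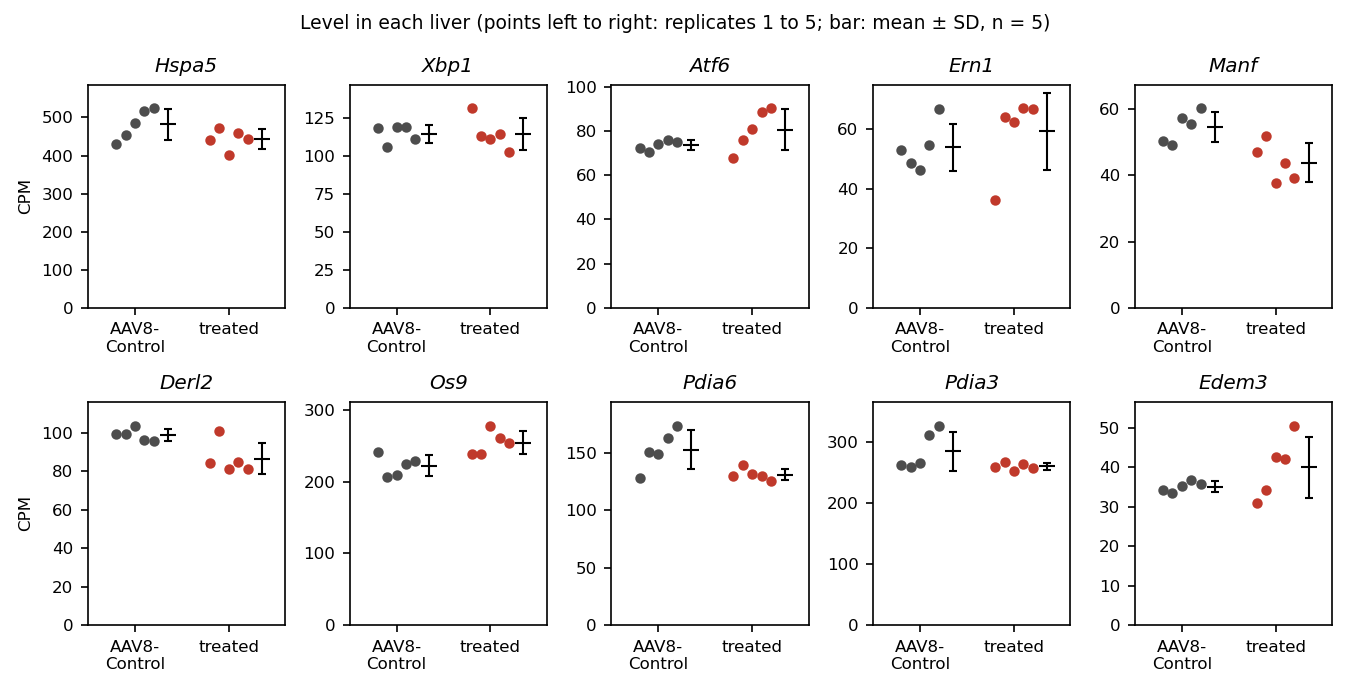
CPM (y axis, from 0) of the 10 members described liver by liver, in AAV8-Control (grey) and treated livers (red), with replicates 1 to 5 from left to right and the mean ± SD (n = 5) as a bar. The groups overlap in each panel, and in *Ern1* the treated liver at 36.3 CPM stands apart from the other 4 at 62.5 to 67.0 CPM.

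ERAD members lay on both sides of 0. Of the 9 tested, *Os9* was higher and *Derl2* lower at an unadjusted p under 0.05, and 6 had a log2 fold change above 0. OS-9 is a lectin that recognises trimmed mannose chains on terminally misfolded glycoproteins and brings them to the Hrd1 ligase. *Os9* measured 242, 207, 209, 225 and 229 CPM in AAV8-Control replicates 1 to 5, and 239, 239, 278, 260.4 and 254 CPM in treated replicates 1 to 5. All 5 treated livers lay above the control median and 3 above every control, and AAV8-Control replicate 1 caused the overlap. Means were 222 ± 14.7 and 254 ± 16.3 CPM, so that the log2 fold change was 0.19 (standard error 0.0675, unadjusted limma p = 0.0136, adjusted p = 0.617, exact permutation p = 0.0238). Over the alternative settings its adjusted p ran from 0.0999 with DESeq2 to 0.969. With TMM scaling its groups did not overlap, where 1.18% of all tested genes did not.

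*Derl2* encodes a derlin, a membrane protein of the channel through which ERAD substrates leave the ER. It measured 99.3, 99.5, 104, 96.2 and 95.7 CPM in AAV8-Control replicates 1 to 5, and 84.4, 101, 81.1, 84.9 and 81.0 CPM in treated replicates 1 to 5. Treated replicate 2 lay among the controls and the other 4 were below every control. Means were 98.8 ± 3.18 and 86.4 ± 8.16 CPM, so that the log2 fold change was -0.20 (standard error 0.0680, unadjusted limma p = 0.0131, adjusted p = 0.617, exact permutation p = 0.0397). Its paralogue *Derl1* had the same layout, with 4 of 5 treated livers below the lowest control, at 111 ± 6.27 and 103 ± 7.50 CPM (log2 fold change -0.10, 95% interval -0.25 to 0.05). Without treated replicate 2, the groups did not overlap in *Derl1*, *Derl2* and *Manf*, where 3.55% of all tested genes did not overlap. *Derl3* was listed at 0.113 to 0.748 CPM, which is 4 to 17 reads per library, and was not compared.

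The 3 EDEM genes, which encode mannose-trimming proteins that commit a glycoprotein to ERAD, had intervals that cover 0. *Edem3* measured 34.2, 33.3, 35.1, 36.8 and 35.8 CPM in AAV8-Control replicates 1 to 5, and 30.9, 34.1, 42.5, 42.1 and 50.5 CPM in treated replicates 1 to 5. Replicates 3, 4 and 5 of the treated group were above every control, the same livers as in *Atf6*, and replicate 1 was below. The log2 fold change was 0.17 (95% interval -0.07 to 0.41, limma adjusted p = 0.649, exact permutation p = 0.206), with a leave-out range of 0.08 without treated replicate 5 to 0.25 without treated replicate 1. *Edem1* was at 161 ± 17.7 and 170.0 ± 21.1 CPM and *Edem2* at 43.2 ± 2.94 and 40.7 ± 3.06 CPM.

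The intervals of *Syvn1*, *Sel1l*, *Herpud1* and the translocon members cover 0. *Syvn1*, the Hrd1 ubiquitin ligase, was at 70.8 ± 8.67 and 72.2 ± 6.48 CPM, and *Sel1l*, its adaptor, at 157 ± 5.53 and 161 ± 12.3 CPM. *Herpud1*, a stress-induced membrane protein that binds Hrd1, had the widest residual SD of the ERAD genes (0.307 on the log2 scale), at 311 ± 47.6 and 336 ± 87.7 CPM, with a range of 231 to 462 CPM among treated livers. The translocon members *Sec61a1*, *Sec61b* and *Ssr1* had log2 fold changes of -0.05, -0.11 and -0.06.

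**Figure D3:**
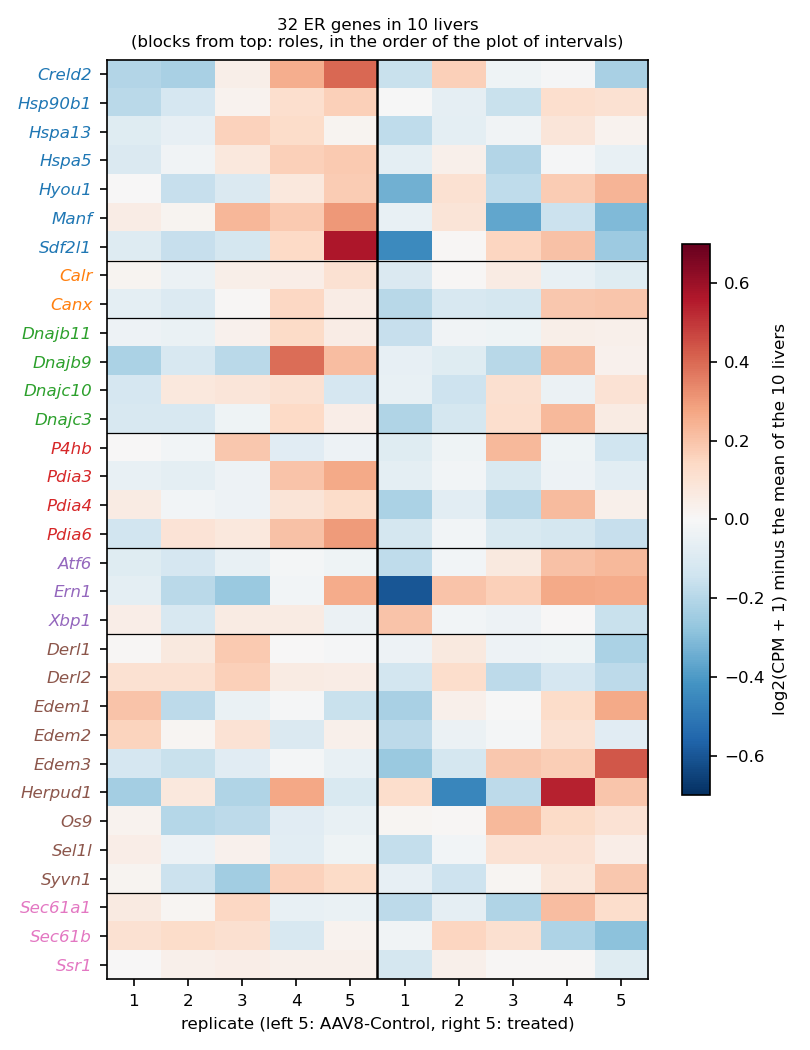
Level of each tested member in each liver as log2(CPM + 1) minus the mean of the 10 livers (colour, red above and blue below), with AAV8-Control left of the black line and treated livers right. Rows are blocked by role, in the order luminal chaperones, lectin chaperones, J-domain co-chaperones, disulfide isomerases, sensors and transcription factors, ERAD and translocon. Treated replicate 1 is the lowest of its group in 15 of 32 rows.

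Livers of the same group differed among themselves, and 6 chaperone and isomerase genes went with *Hspa5* in these differences at an unadjusted p under 0.05. For each gene the level was fitted on that of *Hspa5* beside the group, so that the slope reads how many log2 units a gene gains per log2 unit of *Hspa5* among livers of the same treatment. At an unadjusted p under 0.05, 6 of the 31 other members had a positive slope (19.4%), where 0.762% of the 11026 genes tested had one, and 0 members had a negative slope, where 7.77% of genes had one. They were *Creld2*, *Dnajb9*, *Hsp90b1*, *Manf*, *Pdia3* and *Pdia6*. After adjustment no gene of the table passed 0.05 (0%), and the lowest adjusted p among members was 0.467, so the relation was not called for any single gene. The median slope was 0.32 over the 31 members, of which 23 were above 0, and -0.25 over all tested genes, of which 32.4% were above 0. The 10 livers share library preparation and depth scaling, and error in *Hspa5* itself pulls slopes toward 0.

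The slope depends on the scaling for the bulk of genes. With TMM scaling the median slope of all tested genes was -0.01 and positive and negative slopes at an unadjusted p under 0.05 came to 3.70% and 3.97% of genes. With that scaling 7 members had a positive slope, the 6 above and *Dnajb11*. Leaving out each liver in turn gave 4 to 7 members, where 0.345% to 1.496% of all genes had one. The names changed between these fits, and *Creld2* and *Dnajb9* were the 2 members found in all 10. With the replicate number as a block, 2 members (*Creld2* and *Manf*) had one, where 1.06% of all genes had one, and the median slope was -0.03 over the 31 members, of which 15 were above 0, and -0.41 over all tested genes. The positive median thus did not hold in that fit. In it *Edem3* had a negative slope at an unadjusted p under 0.05, where 8.135% of all genes had one.

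*Creld2* was the steepest, with a slope of 1.62 (standard error 0.488, limma adjusted p = 0.467). In AAV8-Control replicates 1 to 5 it was at 11.1, 10.9, 13.3, 15.6 and 17.4 CPM, so the livers high in *Hspa5*, replicates 4 and 5, were the highest in *Creld2* too. In treated replicates 1 to 5 it was at 11.5, 14.6, 12.6, 12.8 and 10.9 CPM, with replicate 2, the highest in *Hspa5*, again on top. *Dnajb9*, a co-chaperone that binds IRE1, followed with a slope of 1.53 (standard error 0.477, limma adjusted p = 0.467). *Hsp90b1* had a slope of 1.04 (standard error 0.340, limma adjusted p = 0.467). The slopes of *Manf*, *Pdia3* and *Pdia6* were 1.10, 0.86 and 0.86.

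Slopes near or below 0 were found among ERAD genes and also within the classes of the steepest genes. Among the 9 tested ERAD members 0 had a slope with an unadjusted p under 0.05, with a median of -0.03 and a range from -0.31 in *Os9* to 0.59 in *Herpud1*. The flattest were *Edem3* (slope -0.03, limma adjusted p = 0.987), *Derl1* (0.04, adjusted p = 0.977) and *Xbp1* (0.05, adjusted p = 0.977). With TMM scaling these became 0.02, 0.33 and 0.41, and with the replicate block -1.29, 0.56 and 0.72, so that none of the 3 stayed near 0 in each fit. The block gave the ERAD members a median slope of -0.60. In that fit *Edem3* had the lowest slope of the 31 members, negative at the unadjusted threshold of 0.05 but not after adjustment (limma adjusted p = 0.521). The isomerase *P4hb* and the translocon gene *Sec61b* had slopes of -0.50 and -0.52 (-0.17 and -0.10 with TMM scaling), and the co-chaperone *Dnajc10* had -0.23 (0.15). Whether the slopes of chaperones and ERAD genes differ was not tested.

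**Figure D4:**
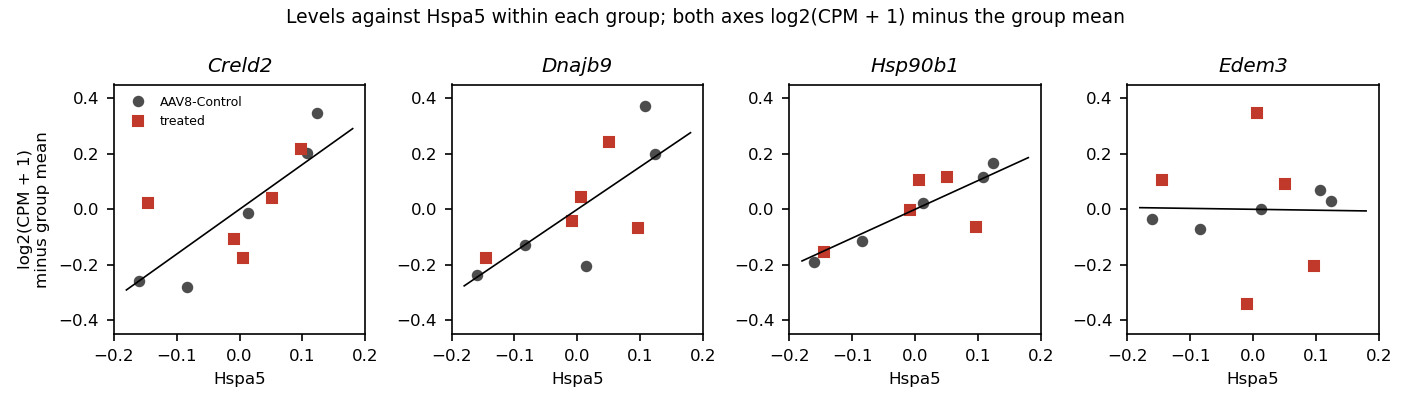
Level of *Creld2*, *Dnajb9*, *Hsp90b1* and *Edem3* (y axes) against *Hspa5* (x axes), all as log2(CPM + 1) minus the mean of the group, with AAV8-Control as grey circles, treated livers as red squares and the fitted slope as a line. The slopes are 1.62, 1.53, 1.04 and -0.03.

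The promoter elements shown above were set beside the slopes. In the 9 tested members other than *Hspa5* that hold ERSE or ERSE-II, the slope was above 0 in all 9, with a median of 0.59 and a range of 0.11 in *Calr* to 1.62 in *Creld2*. In the 16 tested members with a window and neither element, 8 slopes were above 0 and the median was 0.01. With TMM scaling the 2 sets came closer, with medians of 0.63 and 0.20 and with 9 of 9 and 10 of 16 slopes above 0. With the replicate block they were 0.01 and -0.18, with 5 of 9 and 7 of 16 above 0. The difference between the sets was not tested. *Dnajb9*, without the element in its window, had a slope of 1.53, so the groups of genes overlap. The 12 tested genes with ERSE or ERSE-II that are no members had slopes of both signs, of which 8 were above 0, from -3.00 in *Xlr3a* to 0.84 in *Rbm39* with a median of 0.20, and among them *Alg12*, a mannosyltransferase of N-glycan assembly in the ER, had 0.24.

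**Figure D5:**
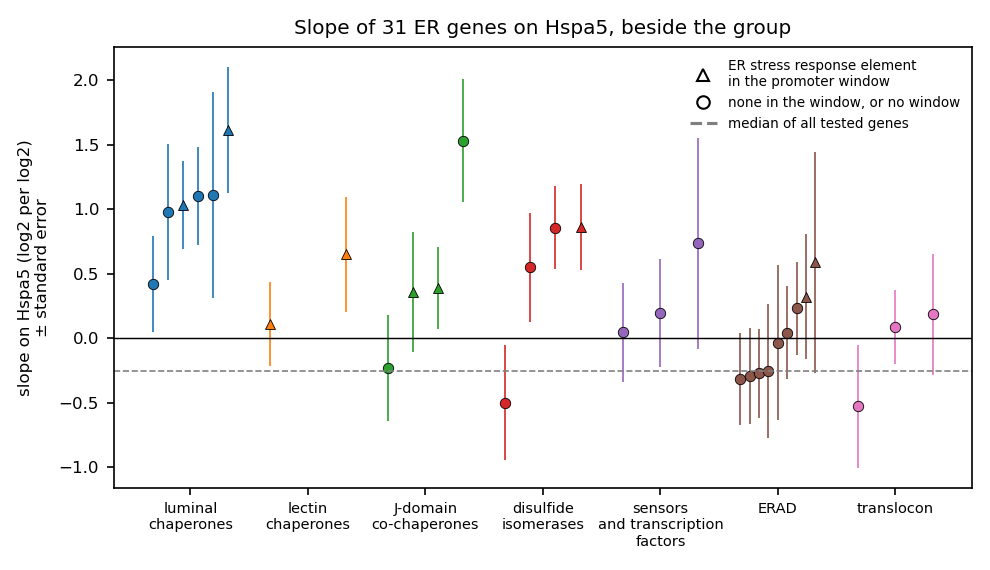
Slope of each of the 31 other tested members on *Hspa5* (y axis, log2 per log2, ± standard error) by role (x axis), with triangles for genes that hold ERSE or ERSE-II in the promoter window. The dashed line is the median of all tested genes at -0.25. Luminal chaperones run from 0.42 to 1.62 and ERAD genes from -0.31 to 0.59.

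Some markers of other liver cells had a negative slope on *Hspa5*, and none of them passed adjustment (lowest limma adjusted p = 0.451). At an unadjusted p under 0.05 the slope was negative in 7 of the 8 sinusoidal endothelial markers and in 4 of the 8 Kupffer cell and macrophage markers, where 7.77% of all tested genes had one. With TMM scaling it was negative in 5 and 1 of them, where 3.97% of genes had one. In the stellate cell, cholangiocyte and hepatocyte markers it was negative in 1 of 8, 0 of 4 and 0 of 10. With TMM scaling it was negative in 0 of each of these 3 sets. The summed endothelial markers ranged from 138 to 278 CPM among controls and from 171 to 242 CPM in the treated livers, and the Kupffer cell markers from 134 to 269.6 and 136 to 229.6 CPM, so the groups overlapped. Between groups, 0 of the 8 endothelial, 8 Kupffer cell, 8 stellate cell and 4 cholangiocyte markers tested had an unadjusted p under 0.05, and no marker of plasma or B cells or of neutrophils and T cells passed the filter. Of the 10 hepatocyte markers, *Tat*, *Hnf4a* and *Cps1* were higher in the treated livers at an unadjusted p under 0.05. These are 3 of 10, where 4.99% of all tested genes were higher. The log2 fold changes of the 10 ran from -0.47 in *Apoa1* to 0.50, with 8 above 0. The part of hepatocyte markers in the differences between groups was not tested. The part of cell composition in the slopes was not tested.

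The rest of the pathway was read from lists of genes, with counts of genes at an unadjusted p under 0.05 between groups and 0 genes in each list with an adjusted p under 0.05. Of 22 tested genes of the PERK arm and other UPR regulators 0 were lower and 2 higher, the stress-induced factor *Ddit3* (CHOP) at 4.76 ± 0.461 and 5.95 ± 1.22 CPM (log2 fold change 0.26, limma adjusted p = 0.617) and *Mbtps2*, the site-2 protease that cuts ATF6, at 8.46 ± 0.772 and 9.97 ± 1.32 CPM (0.21, the same adjusted p). Of 37 other luminal folding enzymes 0 were lower and 1 higher, the J-domain protein *Dnajc1* (0.24). Of 24 genes of N-glycan transfer and the calnexin cycle, *Ost4*, a small subunit of the oligosaccharyltransferase, was lower (-0.25) and *Man1a2*, a Golgi mannosidase, higher (0.30). Of 28 other ERAD genes 0 were lower and *Tmub1* was higher (0.19). Of 20 other translocon, signal recognition particle and signal peptidase genes *Sec61g* was lower (-0.29, at 1.33 ± 0.282 and 0.901 ± 0.227 CPM, where the scale understates changes).

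Genes of export from the ER and cytosolic chaperones were read in the same way. Of 22 genes of COPII vesicles and KDEL receptors, *Sec13* and *Sar1b* were lower (-0.17 and -0.16 on the log2 scale). Of 26 cytosolic and mitochondrial heat shock genes, *Hspb1* and *Hspe1* were lower (-0.49 and -0.21). In this list 4 genes had a positive slope on *Hspa5* at an unadjusted p under 0.05, where 0.762% of all genes had one, namely *Hspa8*, *Hsp90aa1*, *Dnaja1* and *Chordc1* (named after their values were seen), with slopes of 1.51 to 1.77 and limma adjusted p of 0.467 to 0.505. With TMM scaling there were also 4, where 3.70% of genes had one, with *Hspd1* in place of *Hsp90aa1*. Of the 22 genes of the PERK arm and other UPR regulators 0 had a positive slope and 3 a negative one (*Atf4*, *Ppp1r15a* and *Trib3*). Of all genes, 7.77% had a negative one. The median slope of the 22 was -0.42, and with TMM scaling 0 of them had either. Of the 37 other luminal folding enzymes 1 had a positive slope (*Erp44*) and 1 a negative one (*Fkbp9*), with a median of -0.28, close to that of all tested genes at -0.25. In the remaining 5 lists 0 or 1 gene each had a positive slope and 0 or 1 a negative one, and with TMM scaling 0 to 4 had a positive slope, the 4 being of the 20 translocon, signal recognition particle and signal peptidase genes. Of 17 liver genes that respond to feeding and insulin, 3 were lower and 2 higher, among the latter *Pck1* (0.69). Over all these lists 9 of 196 tested genes were lower and 7 higher, against 2.97% and 4.99% of all tested genes, and their median log2 fold change was 0.00.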

How the data were processed

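Poly(A) RNA of 10 *db/db* livers, 5 per group, was sequenced as single reads of 50 bases. Per the paper's methods, the authors aligned reads with STAR 2.0.4b to the Ensembl release 76 assembly (GRCm38), and featureCounts 1.4.5 assigned those that aligned once to genes. The deposited values are CPM, a gene's reads that the authors scaled to the same total in every library. The table has 15236 lines, of which 110 repeat a gene. Each value was a whole number of reads to within 0.01 (100% of values), and 1 read was worth 0.0282 to 0.0513 CPM.

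Groups came from the labels. The transgene of the treated group and 1 listed gene are not reported here. A mean level of 1 CPM or more was required, which left 11027 genes. The test was limma 3.58.1 in R 4.3.3 on log2(CPM + 1), with a trended prior and Benjamini-Hochberg adjustment over these genes. Fold changes are on this scale and understate those of low genes. Slopes came from the same model with log2(CPM + 1) of *Hspa5* as a covariate. Single levels were tested with two-sided exact permutation over 252 assignments. Alternatives were a pseudocount of 0.1, no filter, at least 10 reads in every library, TMM and DESeq2 scaling, edgeR 4.0.16 and DESeq2 1.42.0 on recovered reads, a replicate block, and each library left out. The combination of TMM with a left-out library, and the counts of slopes at an unadjusted p, were added after the data were seen. The computations were tested on simulated data.

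The members and lists were chosen with earlier results of these data known. Described liver by liver were *Hspa5*, *Xbp1*, *Atf6*, *Ern1* and the 8 members with the smallest p, and beside its slope *Creld2*, chosen after its values were seen. From the other lists up to 3 genes per direction with an unadjusted p under 0.05 could be named, and for slopes the members with the 5 smallest p and the largest. Other slopes were chosen after their values were seen. Positions and exon lengths are from GENCODE M21 and sequences from RefSeq promoters, both GRCm38. Of the members, 9 share exonic bases with another gene, at most 10.3% (*Hsp90b1*). The other lists had 203 of their 213 symbols in the table. No pair of libraries was close to a duplicate (lowest chi-square per degree of freedom 16.8).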

Additional observations from a re-analysis of the deposited data

Results flagged for a closer look

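The values of each of the 33 members in the 5 livers of a group were searched for a liver set apart from the others, taken as a gap to its nearest neighbour above 0.71 of the group's whole range. Chance gives this in about 1 in 20 groups, which is 3.30 of the 66 groups searched, and 5 were found. *Ern1*, the gene of IRE1, had the widest gap, 0.854 of the range, in treated replicate 1 at 36.3 CPM against 62.5 to 67.0 CPM in the others. *Derl2* in treated replicate 2 was at 101 CPM against 81.0 to 84.9 CPM (0.802 of the range). *P4hb* was highest in replicate 3 of both groups, at 1894 CPM against 1576 to 1665 CPM in AAV8-Control (0.719) and at 1944 CPM against 1510.4 to 1630.2 CPM in the treated livers (0.724). *Ssr1* in AAV8-Control replicate 1 was at 83.8 CPM against 85.6 to 86.3 CPM (0.721), a narrow range in which the gap is small in absolute terms. No cause was tested.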

How the results depend on the processing

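The count of members with an adjusted p under 0.05 was 0 and the count of lower members 3 (*Manf*, *Derl2* and *Pdia6*) in each of the 19 alternatives, while the share of all tested genes that were lower ran from 1.596% without treated replicate 5 to 5.79% with TMM scaling and no treated replicate 1. The count of higher members stayed at 1 except without treated replicate 1, where it was 4, and with that liver left out and TMM scaling, where it was 2. The leave-out range was 1 to 4. Non-overlapping members numbered 0, but 1 (*Os9*) with TMM scaling, with DESeq2 size factors, and with TMM scaling and no treated replicate 1, where 1.18%, 1.17% and 2.97% of all tested genes did not overlap. Leaving out 1 library gave 0 to 3, with 2 without AAV8-Control replicate 1 and 3 without treated replicate 2, and the share of all tested genes was 2.91% and 3.55% in these, the latter the highest over the 10 left-out libraries. The median log2 fold change ran from -0.07 to -0.02. *Xbp1*, at -0.0049, changed sign without AAV8-Control replicate 1 (0.0067), 3 (0.0082) or 4 (0.0091) and treated replicate 3 (0.0038) or 5 (0.033), and its leave-out range was -0.055 to 0.033, all smaller in size than its standard error of 0.0710. In the whole table DESeq2 gave 17 genes with an adjusted p under 0.05, the replicate block 5 and the main test 2. The count of members with a positive slope was 6, and 4 to 7 with a library left out (0.345% to 1.496% of all genes), with changing names. No slope was fitted with DESeq2, and no overlap was counted with edgeR or DESeq2, and the replicate block does not alter it.

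The labels do not say whether same-numbered livers were paired, and the values do not settle it. Deviations of same-numbered livers correlated at 0.0751 to 0.314 (0.0751 for number 3). Of the 5 controls, 4 correlated best with their own number, a hint from the data only. With the replicate block the counts of members were 0 adjusted, 3 lower and 1 higher, and the members with a positive slope on *Hspa5* fell from 6 to 2 (*Creld2* and *Manf*) and their median slope from 0.32 to -0.03. With the block *Edem3* also came to have a negative slope at an unadjusted p under 0.05. The block changed no other call among the members.

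Depth limits *Derl3*, at 4 to 17 reads per library, and little else among the members, the next lowest being *Sdf2l1* at 75 to 159 reads. With 5 livers per group, the intervals of 6 of the 32 tested members reached past a 1.3-fold change of CPM + 1.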
